A study of Mus musculus with 247 samples.

Results

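Acute-phase and antimicrobial secreted proteins are proteins that liver, epithelium and myeloid cells release in infection and injury. Here they are 7 genes: Saa3, Lcn2, Slpi, Cfb, C3, Ptx3 and Hp. They were chosen by name from a larger table, with their RNA values in these same libraries already known. Their RNA differences below are therefore descriptions. Calls from a fit over all genes are given in places, but they are no test of the members, since these values chose them. Of the 7 genes, 6 are among the 14378 genes of the RNA table and all 6 passed the filter on low values; Ptx3 was not analysed at the RNA level. In the chromatin tables, 30 of 234265 sites carried the name of 1 of the 7 genes. ATAC-seq gave 9 of these sites, PU.1 and JunB ChIP-seq gave 7 each, MED1 gave 4 and RNA polymerase II gave 3. Cfb had none, and Lcn2 had a single PU.1 site.

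The cells were RAW264.7, a mouse macrophage line whose strain label is BALB/c. KO cells carry a CRISPR knockout of GPS2, a subunit of the NCoR and SMRT corepressor complexes; WT cells (called control in ATAC-seq) are their comparison. RNA-seq of poly(A) RNA covered 4 groups of 4 libraries: KO untreated, WT untreated, KO with LPS and WT with LPS, where LPS, the bacterial lipopolysaccharide that Toll-like receptor 4 senses, was given at 10 ng/ml for 6 h. ATAC-seq, which measures how open chromatin is, compared 3 KO with 3 control libraries of untreated cells. ChIP-seq covered PU.1 (the macrophage lineage factor) and JunB (an AP-1 subunit) in all 4 groups, and MED1 (a Mediator subunit) and RNA polymerase II in KO with LPS and WT with LPS, with 2 libraries a group and LPS for 2 h. The LPS time therefore differs between RNA and chromatin. Whether the KO cells are 1 clone or several, and whether libraries of a group came from separate cultures, is not given in the sources used here, so p-values and standard errors measure the spread between these libraries only.

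Saa3 encodes an acute-phase serum amyloid A protein made outside the liver in mice, in macrophages among other cells. Lcn2 (lipocalin-2) binds bacterial siderophores and so withholds iron, Slpi (secretory leukocyte peptidase inhibitor) blocks neutrophil elastase and other serine proteases, and Hp (haptoglobin) binds free haemoglobin. C3 is the central component of complement, Cfb (factor B) is the protease of the alternative pathway that cleaves it, and Ptx3 is a long pentraxin that binds microbes and complement C1q. Many acute-phase genes are known targets of NF-kB, C/EBP and STAT3 downstream of Toll-like receptors, IL-1 and IL-6.

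The sequences below are those that the chromatin results turn on, written 5′ to 3′ on the strand of the gene in lower case, with motif matches in capitals. Motifs were searched on both strands as exact letters: TGANTCA for AP-1, GAGGAA for PU.1, TTGCNNAA for C/EBP, and for NF-kB GGG, 3 bases of any kind, T, 1 base of any kind and CC. The first 4 are 200-base windows centred on deposited sites (mm9). Distances are from the start of the RefSeq transcript; the reference annotation also has a longer Slpi gene (chr2:164179806-164214831, minus strand), inside which the sites called upstream of Slpi here lie. The windows show the Slpi upstream site where PU.1, JunB, MED1 and ATAC-seq values were all higher in KO cells, the JunB site just upstream of the Slpi start, the Saa3 upstream site, open in untreated KO and control cells and with the highest PU.1 values of the members in all 4 ChIP-seq groups, and the JunB and MED1 site assigned to Ptx3.
Slpi, 16325 bases upstream, chr2:164198469-164198668, minus strand, PU.1 site: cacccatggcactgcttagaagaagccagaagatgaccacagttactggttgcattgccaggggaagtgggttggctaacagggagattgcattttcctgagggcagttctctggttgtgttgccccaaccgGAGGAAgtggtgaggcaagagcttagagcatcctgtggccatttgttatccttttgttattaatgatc
Slpi, 223 bases upstream, chr2:164182367-164182566, minus strand, JunB site: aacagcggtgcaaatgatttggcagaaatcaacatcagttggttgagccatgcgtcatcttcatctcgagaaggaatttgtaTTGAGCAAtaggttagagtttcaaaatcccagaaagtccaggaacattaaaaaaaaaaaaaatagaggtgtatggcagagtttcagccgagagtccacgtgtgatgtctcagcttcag
Saa3, 1483 bases upstream, chr7:53972430-53972629, minus strand, PU.1 site: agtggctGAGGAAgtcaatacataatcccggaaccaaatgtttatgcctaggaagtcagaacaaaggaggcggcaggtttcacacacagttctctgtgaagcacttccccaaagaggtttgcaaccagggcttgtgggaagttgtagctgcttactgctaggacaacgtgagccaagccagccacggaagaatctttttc
Ptx3, 20752 bases downstream of its start, chr3:66044462-66044661, plus strand, JunB site: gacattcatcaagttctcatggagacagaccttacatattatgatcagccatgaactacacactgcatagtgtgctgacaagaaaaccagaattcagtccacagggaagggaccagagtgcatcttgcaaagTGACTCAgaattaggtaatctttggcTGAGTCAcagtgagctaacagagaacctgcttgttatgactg

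In the Slpi site 16325 bases upstream the capitals are 1 PU.1 match, a match that 61.2% of all PU.1 windows of this length held. None of the 3 JunB windows assigned to Slpi held the AP-1 letters, which 52.4% of all JunB windows held; the capitals in the window 223 bases upstream are 1 C/EBP match, held by 11.6% of JunB windows. The Ptx3 window held 2 AP-1 matches, and the Saa3 window held 1 PU.1 match at its 5′ end. These matches are descriptions of letters and not sites of binding.

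RefSeq promoter windows (build GRCm38.p6, of which the 250 bases before the gene start were used) matched 5 of the 7 genes by symbol: Saa3, Lcn2, Slpi, C3 and Ptx3. Each of the 5 held 1 C/EBP match, against 9.56% of all 32851 promoters of that length. The Slpi match is the same stretch as the C/EBP match in the JunB window 223 bases upstream. The promoters of Saa3 and Lcn2, the members with the highest RNA per length in LPS-treated WT cells, and of C3 are shown.
Saa3 promoter, chr7:46715677-46715926, minus strand: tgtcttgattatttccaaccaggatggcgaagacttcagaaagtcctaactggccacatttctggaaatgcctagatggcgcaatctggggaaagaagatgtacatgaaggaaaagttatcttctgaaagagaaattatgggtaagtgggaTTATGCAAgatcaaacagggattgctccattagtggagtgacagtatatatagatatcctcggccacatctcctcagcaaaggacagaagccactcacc
Lcn2 promoter, chr2:32387740-32387989, minus strand: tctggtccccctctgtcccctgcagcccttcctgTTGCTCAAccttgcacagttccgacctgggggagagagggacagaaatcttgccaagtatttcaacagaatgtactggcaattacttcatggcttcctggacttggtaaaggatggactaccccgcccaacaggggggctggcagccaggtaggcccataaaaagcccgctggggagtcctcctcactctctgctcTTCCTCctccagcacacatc
C3 promoter, chr17:57228137-57228386, minus strand: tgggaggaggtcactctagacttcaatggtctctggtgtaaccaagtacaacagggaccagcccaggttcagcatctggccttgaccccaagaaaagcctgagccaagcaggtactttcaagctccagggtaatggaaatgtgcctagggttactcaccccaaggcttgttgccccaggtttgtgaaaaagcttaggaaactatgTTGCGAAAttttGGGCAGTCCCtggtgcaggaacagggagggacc

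The capitals in the Saa3 promoter are the C/EBP match. In the Lcn2 promoter they are the C/EBP match and, nearer the start, 1 PU.1 match, which 23.3% of promoters held. In the C3 promoter they are the C/EBP match followed by 1 NF-kB match, which 14.9% of promoters held.

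RNA values below are reads per 10000000 mapped reads divided by a TMM factor, a per-library scaling set by genes that change little; differences are on the log2 scale after adding 1, which understates the change of genes with few reads. Libraries held 12094942 to 22968587 mapped reads. Gps2 RNA averaged 132 ± 2.38 in KO untreated and 434 ± 18.5 in WT untreated cells, and 90.3 ± 9.60 in KO and 440.5 ± 36.7 in WT cells with LPS (SD, n = 4 each), so it was lower in every KO library, though present; whether the counted exons include the edited part is not given in the sources used here. Of the 7 macrophage markers all had values, and their summed level was 116283 to 122666 in KO untreated, 83799 to 92682 in WT untreated, 99094 to 104546 in KO with LPS and 77084 to 104225 in WT with LPS. Lyz2 was the largest part untreated, at 72285 in KO and 48301 in WT cells. Untreated Spi1 was lower in KO cells (2075 against 3230) and Adgre1 alike (695 against 702). Csf1r, Cd68, Itgam and Cd14 were higher, as was Lyz2. With LPS, Spi1 (4161 against 6042) and Cd14 (33170 against 40068) averaged lower in KO cells, and the other markers averaged higher. Of 8 neutrophil markers 2 had values, S100a8 among them, with sums of 2.55 to 6.74 in KO untreated, 0 to 0.548 in WT untreated, 15.6 to 20.8 in KO with LPS and 3.56 to 19.3 in WT with LPS; the 5 hepatocyte and 4 epithelial markers had no values, and 1 of 4 fibroblast markers reached at most 1.097. The part of these sums in the member results was not tested. In bulk RNA, fewer cells of a type and less RNA per cell cannot be told apart. Between libraries of a group, read counts differed by a chi-square per gene of 1.24 to 1.85 in KO with LPS. It was 1.41 to 3.41 in KO untreated and 2.74 to 7.52 in WT untreated, where sampling noise alone gives about 1. Here n = 4 is thus a count of libraries. WT LPS replicate 4 stood apart from the other WT libraries with LPS: its read counts differed from theirs by a chi-square of 98.6 to 138 per gene, against 5.20 to 9.51 between the other 3. The members' KO-minus-WT differences with LPS are therefore given with and without it, as are some list genes and counts. Differences of responses are given without it for Slpi and Saa3 only. LPS responses and the other list values are over all libraries.

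Slpi (NM_011414, chr2:164179806-164182243, minus strand, mm9), the protease inhibitor, was the member with the highest KO-to-WT ratio. Its value was 169, 194, 166 and 160.2 in the 4 KO untreated libraries, against 6.4, 4.39, 4.98 and 6.05 in the WT untreated ones. With LPS it was 997, 1051, 992 and 1020.3 in KO cells, against 68.5, 79.0, 67.3 and 137 in WT cells. Every KO library was above every WT library in both conditions, and untreated KO cells were above LPS-treated WT cells. The mean was 31.6 times the WT mean without LPS (log2 difference 4.75 ± 0.18, SE) and 11.5 times with LPS (3.58 ± 0.18; 3.82 ± 0.10 without WT LPS replicate 4). By size of the log2 difference Slpi had rank 8 from the top of 11791 genes untreated and rank 20 with LPS.

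Both genotypes had more Slpi RNA with LPS: 1015 ± 26.99 with LPS against 172 ± 14.8 without in KO cells (SD, n = 4 each), a log2 response of 2.56 ± 0.18, and 88.0 ± 33.1 against 5.45 ± 0.934 in WT cells, a response of 3.73 ± 0.18. The difference of responses, KO minus WT, was -1.18 ± 0.25, and -0.93 ± 0.14 without WT LPS replicate 4. It was -0.12 with 10 in place of 1 added before taking logs; untreated WT libraries held 8 to 14 Slpi reads. In reads per 10000000 the gain with LPS was larger in KO cells.

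Saa3 (NM_011315, chr7:53967368-53971046, minus strand), the amyloid A gene, changed sides with LPS. Untreated KO libraries had 38.7, 31.9, 35.5 and 36.2, against 14.8, 15.9, 11.6 and 16.9 in untreated WT libraries. With LPS the KO libraries had 2057, 2016, 2010.4 and 1989.9, against 6036, 5056, 6183 and 12514 in WT libraries. Neither pair of groups overlapped: KO cells were higher untreated and lower with LPS. The KO mean was 2.41 times the WT mean untreated (log2 difference 1.22 ± 0.20) and 0.271 times with LPS (-1.79 ± 0.20; -1.50 ± 0.09 without WT LPS replicate 4, where the WT mean was 5759 ± 613, n = 3).

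The LPS response of Saa3 on the log2 scale was 5.79 ± 0.20 in KO cells, rank 80 from the top of 11791 genes, where that of Lcn2 was larger. In WT cells it was 8.80 ± 0.20, rank 6, the largest of the 6 members. The difference of responses, KO minus WT, was -3.01 ± 0.29, rank 26 from the lowest, and -2.72 ± 0.13 without WT LPS replicate 4.

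Cfb (NM_008198, chr17:34993319-34999459, minus strand), the alternative-pathway protease, was at 15.2, 14.5, 16.3 and 15.3 in untreated KO libraries, against 18.2, 19.7, 20.7 and 13.8 in untreated WT libraries. With LPS it was at 848, 796, 861 and 797 in KO cells, against 2406, 2309, 2319 and 1704 in WT cells. The untreated groups overlapped and the LPS groups did not, with every KO library below every WT library. The log2 difference was -0.22 ± 0.12 untreated and -1.39 ± 0.12 with LPS, where the KO mean was 0.378 times the WT mean; without WT LPS replicate 4 the difference with LPS was -1.50 ± 0.10. The response to LPS was 5.66 ± 0.12 in KO cells and 6.84 ± 0.12 in WT cells, a difference of -1.18 ± 0.17.

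C3 (NM_009778, chr17:57343390-57367559, minus strand), the complement component that Cfb acts on, had 47.7, 49.3, 40.8 and 43.9 in untreated KO libraries, against 41.4, 43.9, 47.7 and 53.2 in untreated WT libraries. With LPS it had 125, 132, 138 and 125 in KO cells, against 234, 236, 216 and 99.3 in WT cells. The untreated groups overlapped, and with LPS 3 of 4 WT libraries were above and replicate 4 was below all KO libraries. The log2 difference with LPS was -0.51 ± 0.21 over all libraries and -0.81 ± 0.10 without WT LPS replicate 4, where the mean was 129.9 ± 5.99 in KO cells (SD, n = 4) and 229 ± 10.7 in WT cells (n = 3). Untreated it was -0.03 ± 0.21.

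Lcn2 (NM_008491, chr2:32240157-32243259, minus strand), the siderophore binder, was at 5.61, 0.414, 2.40 and 5.10 in untreated KO libraries, from 10, 1, 5 and 10 reads, against 1.97, 4.39, 4.15 and 2.16 in untreated WT libraries. With LPS it was at 597, 563, 575 and 559 in KO cells, against 821, 868, 917 and 1199 in WT cells. The untreated groups overlapped at a few reads each, and with LPS every KO library was below every WT library. The KO mean was 0.603 times the WT mean with LPS, with a log2 difference of -0.71 ± 0.37. All groups shared 1 estimate of the spread, which includes the untreated libraries of 1 to 10 reads; with 10 added before taking logs the difference was -0.70, and without WT LPS replicate 4 it was -0.59 ± 0.44. The response to LPS was 7.27 ± 0.37 in KO cells and 7.87 ± 0.37 in WT cells.

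Hp (NM_017370, chr8:112099028-112103072, minus strand), the haemoglobin binder, had the lowest level per length of the 6 members in 3 of the 4 groups. Untreated KO libraries had 8.98, 9.94, 5.76 and 6.12, against 1.48, 0, 3.73 and 1.30 in untreated WT libraries (3, 0, 9 and 3 reads). With LPS the KO libraries had 5.86, 8.82, 9.78 and 7.65, against 6.09, 5.70, 5.45 and 13.2 in WT libraries. KO cells were above WT cells untreated, with no overlap, and the LPS groups overlapped. The log2 difference was 1.90 ± 0.39 untreated and 0.13 ± 0.39 with LPS, or 0.41 ± 0.36 without WT LPS replicate 4. Hp had a log2 response to LPS of 0.06 ± 0.39 in KO cells and 1.83 ± 0.39 in WT cells.

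**Figure D1:**
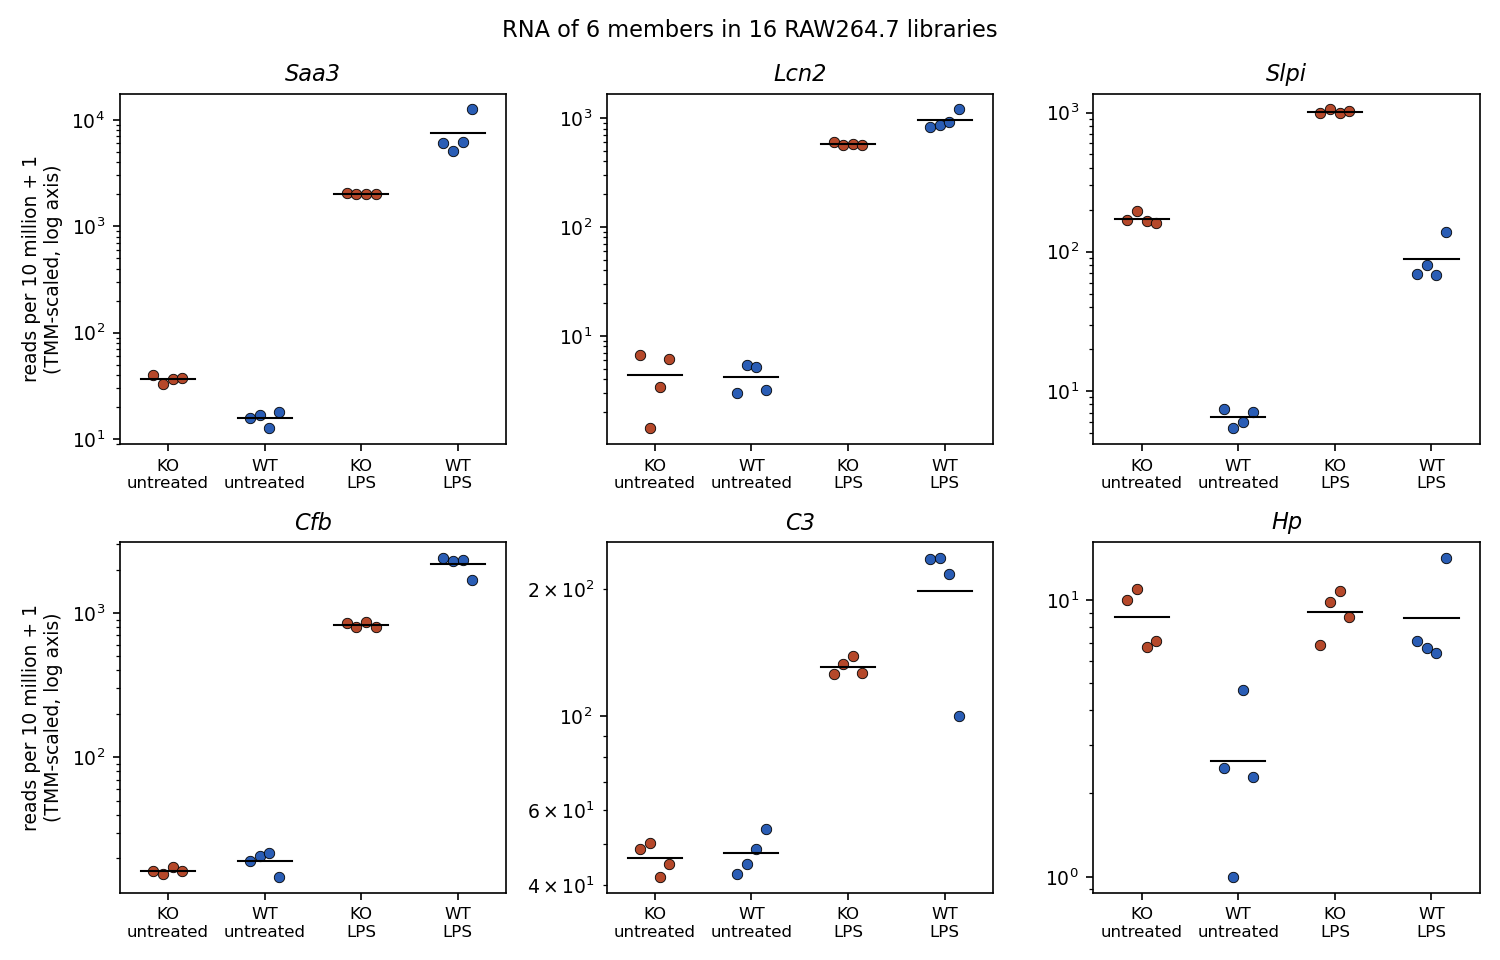
RNA of the 6 measured members, in TMM-scaled reads per 10000000 mapped reads plus 1 on log axes; each point is 1 of 16 libraries (red KO, blue WT) and each bar the group mean of 4. Slpi is above WT in both conditions (1015 against 88.0 with LPS), and Saa3 is above WT untreated (35.6 against 14.8) and below it with LPS (2018 against 7447).

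Counted by the adjusted p of the limma fit over all genes, 3 of the 6 members were higher in KO than in WT untreated cells (Slpi, Hp and Saa3), beside 18% of all genes tested. With LPS, 1 was higher (Slpi), beside 22.1% of genes, and 2 were lower (Saa3 and Cfb), beside 22.1% of genes. With LPS against untreated, 5 of 6 were higher in KO cells (not Hp), beside 31.5% of genes, and 6 of 6 in WT cells, beside 34.2%. The log2 response, with 1 added before taking logs, was smaller in KO cells for 4 (Saa3, Hp, Slpi and Cfb), beside 10.4% of genes. These values chose the members, so nothing is read from these counts. Without WT LPS replicate 4, C3 was counted lower with LPS and smaller in its response as well. Of all genes, 28.5% were then lower with LPS and 18.8% lower in the difference of responses.

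**Figure D2:**
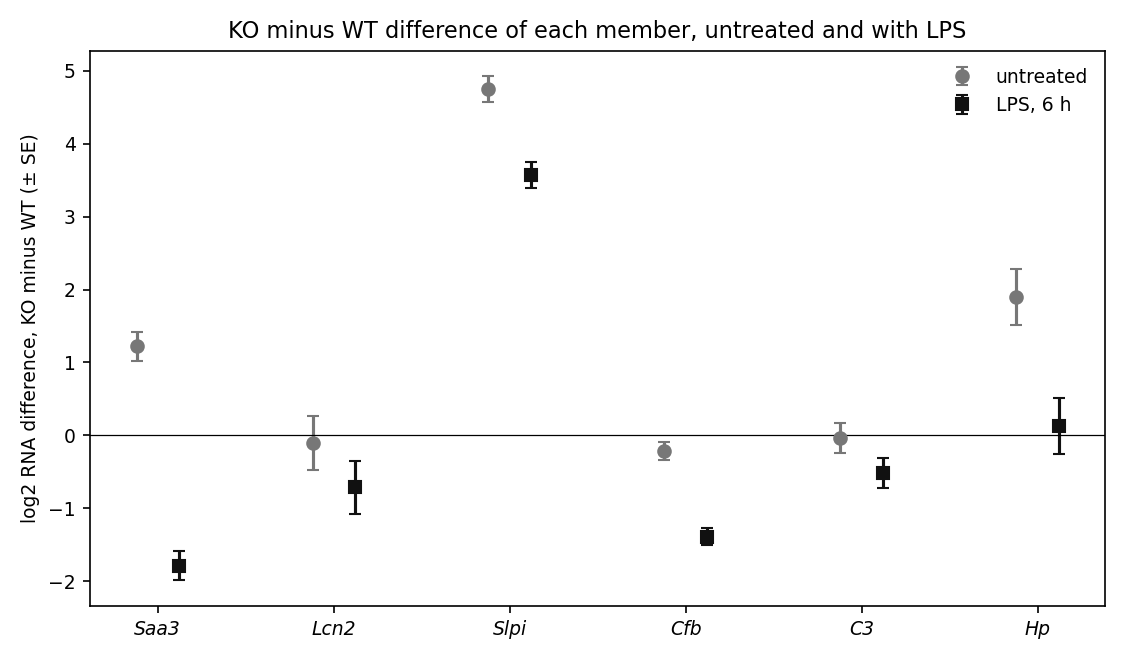
Log2 RNA difference, KO minus WT, of each measured member in untreated cells (grey circles) and after 6 h of LPS (black squares). Bars are standard errors of the limma fit, which shares 1 estimate of the spread over all 16 libraries (4 a group). All 6 values are lower with LPS than without: Slpi stays above 0 at 3.58, Saa3 is at 1.22 untreated and -1.79 with LPS, and Cfb is at -1.39 with LPS. In the limma fit this lowering was called for Saa3, Hp, Slpi and Cfb, beside 10.4% of all genes. These values chose the members, so nothing is read from that count. With 10 in place of 1 added before taking logs, the Slpi difference of responses was -0.12 and was not called.

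Levels can be compared between members only per kilobase of transcript length. In KO cells with LPS the order was Saa3 at 3844 ± 53.2, Slpi at 1167 ± 31.02, Lcn2 at 679 ± 20.0, Cfb at 303 ± 12.5, C3 at 25.5 ± 1.18 and Hp at 6.00 ± 1.26 reads per 10000000 per kilobase (SD, n = 4). In WT cells with LPS the order was Saa3 at 14186 ± 6504, Lcn2 at 1126 ± 201.2, Cfb at 801 ± 118, Slpi at 101.1 ± 38.1, C3 at 38.5 ± 12.8 and Hp at 5.68 ± 2.78. Slpi thus had rank 2 in KO cells and rank 4 in WT cells. Untreated KO cells had Slpi first at 198 ± 17, then Saa3 at 67.8 ± 5.39, C3 at 8.91 ± 0.749, Hp at 5.75 ± 1.55, Cfb at 5.62 ± 0.277 and Lcn2 at 4.00 ± 2.88. Untreated WT cells had Saa3 at 28.2 ± 4.35, C3 at 9.13 ± 1.01, Cfb at 6.65 ± 1.12, Slpi at 6.27 ± 1.07, Lcn2 at 3.75 ± 1.51 and Hp at 1.22 ± 1.16. Neighbours within 1 SD of each other were Hp, Cfb and Lcn2 in untreated KO cells, and Cfb with Slpi in untreated WT cells.

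Over the 16 libraries, which share 4 groups, the log2 values of Saa3, Lcn2, Cfb and C3 ran together (Pearson's r of 0.978 for Saa3 with Lcn2, 0.984 for Saa3 with Cfb, 0.987 for Lcn2 with Cfb, and 0.926 to 0.960 for C3 with these 3). Slpi had lower values with them (0.579 with Saa3, 0.550 with Lcn2, 0.495 with Cfb and 0.437 with C3) and 0.788 with Hp. The genes most like each member were Riok3 and Gch1 for Saa3 (both 0.998), Il15ra and Gbp2b for Lcn2 (both 0.995), Irgm2 and Rap2c for Cfb (both 0.998), Spink5 and Sqstm1 for Slpi (0.991 and 0.990), Etv6 and Rab11fip1 for C3 (0.993 and 0.991) and Ccdc130 and Pqlc2 for Hp (0.909 and 0.890). Spink5 encodes another serine protease inhibitor.

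Genes that work with the members were described from 4 lists. Of 40 other acute-phase and antimicrobial genes, 11 had values and 7 were tested; 4 were higher and 1 lower in untreated KO than WT cells, where 18% of all genes tested were higher and 17.5% lower, and 6 were higher with LPS, beside 22.1% of all genes. The median log2 difference was 0.57 untreated and 0.73 with LPS, against 0.01 and 0.00 over all genes. S100a8, a calprotectin subunit also among the neutrophil markers, averaged 4.52 ± 1.77 in KO and 0.260 ± 0.301 in WT untreated cells (log2 difference 2.11 ± 0.36). The whey-acidic-protein gene Wfdc17, of the same domain family as Slpi, averaged 37.1 ± 6.77 in KO and 13.8 ± 1.37 in WT untreated cells (1.35 ± 0.20). With LPS it was at 591 ± 20.3 in KO and 607 ± 256 in WT cells (0.04 ± 0.20). Without WT LPS replicate 4, at 988 the highest of them, the difference was 0.31 ± 0.11 and passed (limma adjusted p = 0.0184). That made the list 7 of 7 higher, beside 29.2% of all genes without that library. Both lysozyme genes were higher in KO cells in both conditions: Lyz1 by 0.57 ± 0.07 untreated and 0.73 ± 0.07 with LPS, and Lyz2 by 0.58 ± 0.11 and 0.63 ± 0.11. Cp (ceruloplasmin) was lower in KO cells untreated, by a log2 difference of -0.61 ± 0.12, and higher with LPS, by 0.54 ± 0.12. Hamp, the iron hormone hepcidin, averaged 16.4 ± 2.55 in KO and 7.43 ± 4.53 in WT cells with LPS (1.19 ± 0.33; 1.501 ± 0.355 without WT LPS replicate 4).

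Of 36 other complement genes, 24 had values and 12 were tested; 4 were higher and 2 lower in untreated KO cells (18% and 17.5% of all genes), and 4 were higher with LPS (22.1% of all genes), with medians of 0.28 and 0.19. The lower ones were the C5a receptors, C5ar1 (-0.37 ± 0.04) and C5ar2 (-1.07 ± 0.29); with LPS, C5ar1 was higher in KO cells, by 0.50 ± 0.04. C3ar1, the receptor of the C3a fragment, averaged 548 ± 19.7 in KO and 210.1 ± 8.72 in WT untreated cells (1.38 ± 0.12), and 6077 ± 90.8 in KO and 4056 ± 859 in WT cells with LPS (0.61 ± 0.12; 0.45 ± 0.05 without WT LPS replicate 4). Properdin (Cfp), which stabilises the alternative-pathway convertase, did not pass the test untreated (-0.05 ± 0.13). Itgax, an integrin subunit of complement receptor 4, was higher untreated (0.89 ± 0.19). Without WT LPS replicate 4, 6 were higher and 2 lower untreated, where 29.1% and 29.7% of all genes were then called. The median with LPS was then -0.01.

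Of 19 receptors and partners of the members, 17 were tested; 12 were higher and 2 lower in untreated KO cells (18% and 17.5% of all genes), and 9 were higher and 3 lower with LPS (22.1% of all genes each), with medians of 0.64 and 0.29. Among them, Cd36, a scavenger receptor that binds serum amyloid A, averaged 104 ± 15.0 in KO and 2104 ± 103 in WT untreated cells (log2 difference -4.33 ± 0.11), and was lower with LPS too (-1.87 ± 0.11). Mmp9, a protease that forms a complex with Lcn2, averaged 5189 ± 149 in KO and 977 ± 89.9 in WT cells with LPS (2.41 ± 0.08). Fcgr2b, an inhibitory Fc receptor, averaged 534 ± 24.3 in KO and 70.8 ± 6.48 in WT untreated cells (2.90 ± 0.11). Slc40a1, the iron exporter that hepcidin blocks, was higher by 1.48 ± 0.32 untreated and 1.35 ± 0.32 with LPS. Its level was low, at 6.29 ± 2.34 in KO and 1.96 ± 1.26 in WT cells with LPS. The lipoprotein receptor Scarb1 was lower untreated (-0.59 ± 0.06). Slc22a17, the Lcn2 receptor, was higher in KO cells by 1.21 ± 0.25 untreated and 1.01 ± 0.25 with LPS. Tlr4 averaged 1483 ± 58.3 in KO and 879 ± 70.2 in WT untreated cells (0.76 ± 0.13), and 503 ± 25.2 in KO and 784 ± 182 in WT cells with LPS (-0.61 ± 0.13; -0.79 ± 0.06 without WT LPS replicate 4).

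Of 21 upstream regulators, 19 were tested; 6 were higher and 3 lower in untreated KO cells (18% and 17.5% of all genes), and 5 were higher and 10 lower with LPS (22.1% of all genes each), with medians of 0.07 and -0.34. Without WT LPS replicate 4 these counts were 8 and 7 untreated, where 29.1% and 29.7% of all genes were then called, and 5 and 13 with LPS, where 29.2% and 28.5% were. Among the cytokines, Il6, which drives hepatic acute-phase synthesis, averaged 3759 ± 131 in KO and 779 ± 271 in WT cells with LPS (2.32 ± 0.25; 2.55 ± 0.22 without WT LPS replicate 4), and Tnf 24932 ± 119.6 in KO and 9472 ± 198 in WT cells (1.40 ± 0.05). Of the transcription regulators, Cebpb (C/EBP beta) with LPS averaged 1712 ± 51.5 in KO and 5124 ± 2023 in WT cells (-1.51 ± 0.17; -1.26 ± 0.06 without WT LPS replicate 4), Cebpd 2423 ± 98.7 in KO and 6034 ± 2345 in WT cells (-1.25 ± 0.16; -0.9998 ± 0.0516 without it), Stat3 2361 ± 31.7 in KO and 3677 ± 614 in WT cells (-0.62 ± 0.09) and Bcl3, an atypical IkB protein, 1104 ± 51.8 in KO and 3157 ± 23.3 in WT cells (-1.52 ± 0.07). Arid5a, which stabilises Il6 mRNA, was higher in KO cells untreated (1.84 ± 0.07) and lower with LPS (-1.32 ± 0.07). Cebpa was lower in both conditions (-1.32 ± 0.08 untreated and -0.61 ± 0.08 with LPS). Nfkbiz, another atypical IkB protein, was higher with LPS, by 0.37 ± 0.07. Untreated, Cebpb was at 1100.0 ± 83.0 in KO and 1097 ± 84.2 in WT cells.

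ATAC-seq came from other libraries than the RNA values, and the 9 member sites were tested. The members were chosen with their KO and WT RNA values known, so differences at their sites are not independent of that choice. Values are on the authors' log2 scale, whose exact transformation is not given in the sources used here. At the Slpi site 16516 bases upstream (chr2:164198262-164199256, mm9, intergenic) the 3 KO libraries had 4.71, 4.61 and 4.83, against 4.23, 4.196 and 4.15 in control libraries. All KO values were above all control values, with a difference of 0.53 ± 0.08 (SE; limma with Benjamini-Hochberg adjustment over 73206 sites, adjusted p = 6.78e-09). The site contains the Slpi sequence printed first above. A weaker Slpi site 11369 bases upstream had 1.74, 1.68 and 1.60 in KO and 1.55, 1.57 and 1.56 in control libraries, a difference of 0.12 ± 0.04 (limma adjusted p = 0.0193) that did not pass under some alternatives. At the Slpi promoter (chr2:164181879-164182789), open in both genotypes, KO libraries had 4.36, 4.399 and 4.26 and control libraries 4.16, 4.11 and 4.14. The difference of 0.21 ± 0.07 missed the threshold (limma adjusted p = 0.0619).

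In all, 2 of 9 member sites were more open in KO cells, both near Slpi, beside 4.04% of all ATAC-seq sites. Of the Hp sites, the one 6680 bases upstream differed by 0.19 ± 0.06 (limma adjusted p = 0.0511), the one at its start by 0.12 ± 0.04 (limma adjusted p = 0.0786), and the one 14427 bases upstream by 0.04 ± 0.04 (limma adjusted p = 0.657). The Saa3 site 1466 bases upstream had 4.36, 4.55 and 4.47 in KO and 4.52, 4.44 and 4.55 in control libraries, a difference of -0.05 ± 0.08 (limma adjusted p = 0.781). Saa3 RNA was higher in untreated KO cells, and its relation to this site was not tested. The C3 promoter site had 4.62, 4.66 and 4.603 in KO and 4.58, 4.69 and 4.68 in control libraries, a difference of -0.02 ± 0.08 (limma adjusted p = 0.919).

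In ChIP-seq, the 2 libraries of a group differed by about the sampling noise (chi-square of 0.823 to 1.16 per site, where noise alone gives about 1; JunB in untreated KO cells was the highest) and were counted as 1 sample. Ratios are therefore given with no p-value, and a site counts as changed at 2-fold or more between TMM-scaled means with 1 added. The interval after each ratio is the exact 95% counting interval and covers counting error only. Fewer KO reads fell in sites: 14.2% to 14.4% in KO against 45.0% to 46.4% in WT libraries for RNA polymerase II, 8.81% to 8.92% against 14.6% for MED1, and 17.2% to 17.5% against 24.8% to 25.2% for PU.1 in untreated cells. TMM scaling sets the median site to about 0; with library totals the median of all sites was -0.54 untreated and -0.40 with LPS for PU.1, -0.28 and -0.14 for JunB, while MED1 had -0.74 and RNA polymerase II -1.81 (log2, KO over WT). For LPS over untreated it was -0.54 in KO and -0.68 in WT cells for PU.1, and 2.07 in KO and 1.88 in WT cells for JunB. The part of these differences in the member results was not tested.

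At the Slpi upstream site PU.1, the macrophage lineage factor (chr2:164198410-164198727, mm9), had 63.2 and 60.6 TMM-scaled reads per 10000000 in KO and 24.9 and 16.6 in WT untreated libraries. With LPS it had 55.5 and 50.1 in KO and 23.04 and 16.9 in WT libraries. KO values were above WT values in both conditions, by a log2 ratio of 1.53 untreated (1.09 to 2.04; 0.99 with library totals) and 1.36 with LPS (0.82 to 2.04; 0.94 with library totals). The log2 ratio of LPS to untreated was -0.23 in KO cells and -0.05 in WT cells, with intervals that included 0 (-0.78 and -0.73 with library totals).

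The PU.1 site farther upstream of Slpi (21200 bases, chr2:164203283-164203604) had 35.8 and 23.04 in KO and 12.4 and 9.08 in WT untreated libraries, and 36.1 and 26.4 in KO and 10.9 and 6.35 in WT libraries with LPS. Its log2 ratio was 1.37 untreated and 1.74 with LPS (0.86 and 1.33 with library totals). The Slpi site 6559 bases upstream, whose window holds 5 PU.1 matches, had 12.6 and 7.28 in KO and 8.52 and 9.83 in WT untreated libraries, a ratio of 0.11 (-0.40 with library totals). With LPS it had 30.5 and 25.02 in KO and 12.1 and 11.7 in WT libraries, a ratio of 1.16 (0.43 to 2.06; 0.75 with library totals).

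Among the 7 PU.1 member sites, 2 were at least 2-fold higher in untreated KO cells, beside 1.22% of all PU.1 sites, and 3 with LPS, beside 5.38%; all were Slpi sites. With LPS against untreated, 1 was higher by 2-fold in KO cells (the Slpi site 6559 bases upstream, log2 ratio 1.39; 0.85 with library totals), beside 8.30% of sites, and none of the 7 passed in WT cells, where 3.58% of all sites were higher and 3.36% lower. The Saa3 site had the highest PU.1 values of the members: 123 and 119 in KO and 100.9 and 105 in WT untreated libraries, and 90.2 and 86.2 in KO and 87.3 and 100.6 in WT libraries with LPS. Its KO-to-WT log2 ratios were 0.23 and -0.09 (-0.32 and -0.50 with library totals). The Lcn2 site, in its last intron (chr2:32240555-32240848), had ratios of -0.03 untreated and -0.01 with LPS (-0.57 and -0.41 with library totals), and a ratio of LPS to untreated of 0.64 in KO cells and 0.62 in WT cells (0.08 and -0.07 with library totals). The C3 site, in intron 11, had KO-to-WT ratios of -0.13 and 0.03 (-0.68 and -0.37 with library totals). The distant Ptx3 site, 90024 bases upstream, had 0.53 and 0.74 (-0.02 and 0.33 with library totals), so its direction untreated turned with the scaling. A further PU.1 site in the last intron of Saa3, which carries another gene's name, had -0.56 and -0.33 (-1.10 and -0.72 with library totals).

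JunB, the AP-1 subunit, was also higher in KO cells at the Slpi upstream site (chr2:164198346-164198684), which overlaps the PU.1 site. It had 42.2 and 40.6 in KO and 12.2 and 12.5 in WT untreated libraries, and 26.6 and 23.5 in KO and 8.92 and 10.4 in WT libraries with LPS. The log2 ratio was 1.67 untreated (0.92 to 2.63; 1.32 with library totals) and 1.29 with LPS (0.89 to 1.87; 1.19 with library totals). At the Slpi promoter (chr2:164182297-164182636) JunB had 28.1 and 20.3 in KO and 4.88 and 1.39 in WT untreated libraries, from 22 reads in KO and 5 in WT, a ratio of 2.61 (1.49 to 4.68; 2.12 with library totals). With LPS it had 37.1 and 37.2 in KO and 19.9 and 19.7 in WT libraries, a ratio of 0.87 (0.55 to 1.27; 0.75 with library totals). The third site, 7084 bases upstream, had a ratio of 0.62 from 4 reads in each genotype untreated (0.32 with library totals), and with LPS 21.4 and 17.2 in KO and 9.60 and 10.8 in WT libraries (0.86; 0.75 with library totals).

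Untreated, 3 of 7 JunB member sites were at least 2-fold higher in KO cells (the Slpi upstream and promoter sites and the Hp site), beside 10.8% of all JunB sites, and 1 was lower (Saa3), beside 9.22%; the Hp site rested on 7 reads in KO and 4 in WT and the Saa3 site on 2 in KO and 12 in WT, and both intervals included 0 (0.93 for Hp and -1.38 for Saa3 with library totals). With LPS, 1 of 7 was higher (the Slpi upstream site), beside 4.16%. The Saa3 ratio with LPS was 0.06 (-0.07 with library totals). LPS against untreated passed 2-fold upward at 3 sites in KO cells (Slpi 7084 bases upstream, C3 and Ptx3), beside 20.3% of sites, and at 4 in WT cells (Slpi promoter, Slpi 7084 bases upstream, C3 and Hp), beside 15.7%. With library totals all 7 passed upward in both genotypes, as did 87.3% of all JunB sites in KO and 88.1% in WT cells, and the LPS response at the Slpi upstream site turned direction: it was -0.70 in KO and -0.32 in WT cells with TMM scaling, and 1.41 in KO and 1.54 in WT cells with library totals.

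In C3, JunB bound intron 1 (chr17:57367171-57367414) and had 35.6 and 28.2 in KO and 39.8 and 37.1 in WT libraries with LPS, a log2 ratio of -0.26 (-0.60 to 0.02; -0.40 with library totals). Untreated it had 10.0 and 10.2 in KO and 12.2 and 6.95 in WT libraries. JunB at the site assigned to Ptx3 (chr3:66044391-66044731, in an intron of NM_145820) had 59.4 and 61.9 in KO and 42.2 and 32.5 in WT libraries with LPS, a ratio of 0.69 (0.43 to 0.96; 0.55 with library totals). JunB sites that lie within members but carry other names had ratios of 0.88 untreated and 0.15 with LPS in C3, and -0.30 and -0.05 in Cfb, all with intervals that included 0 (0.51, 0.01, -0.47 and -0.19 with library totals).

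**Figure D3:**
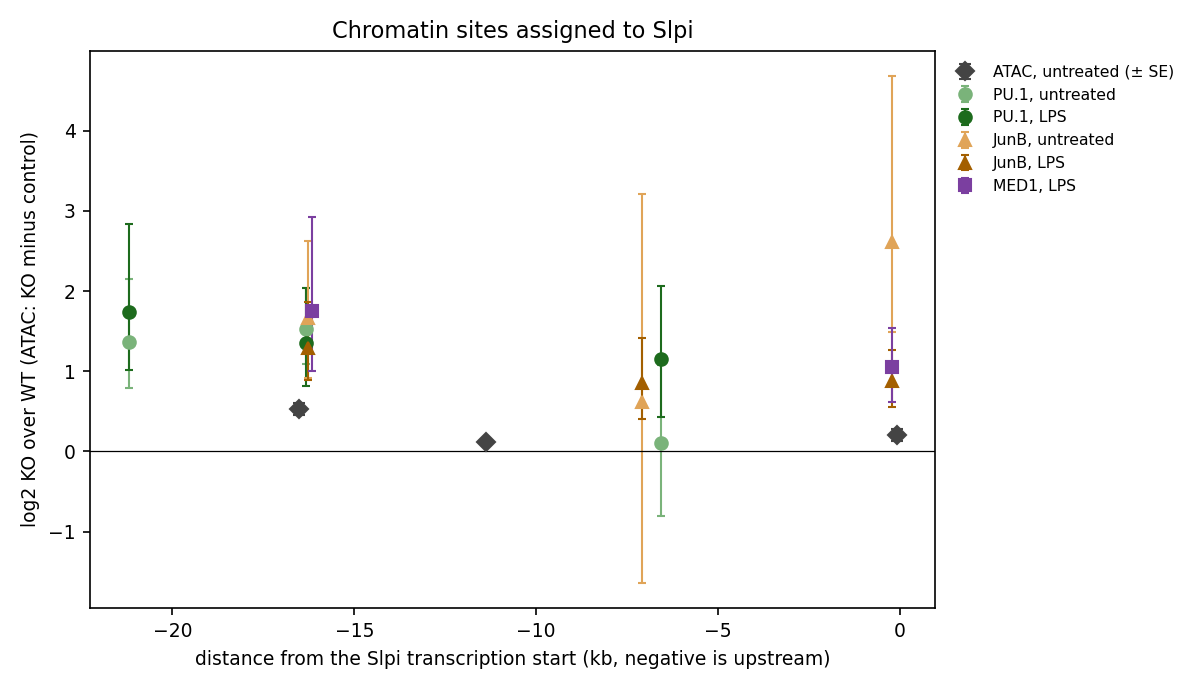
Log2 KO over WT at every site assigned to Slpi, by distance from its transcription start in kb (negative is upstream). ATAC-seq points have standard errors, ChIP-seq points have 95% counting intervals; the cluster about 16 kb upstream holds ATAC-seq (0.53), PU.1 (1.53 and 1.36), JunB (1.67 and 1.29) and MED1 (1.75), all above 0.

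MED1, which links factors to RNA polymerase II, was measured with LPS. At the Slpi upstream site (chr2:164197935-164198894) it had 22.8 and 18.5 in KO and 6.25 and 4.64 in WT libraries, a log2 ratio of 1.75 (1.00 to 2.92; 1.05 with library totals). At the Slpi promoter it had 62.8 and 48.9 in KO and 30.5 and 22.4 in WT libraries, a ratio of 1.05 (0.62 to 1.54), which with library totals was 0.30. At the Ptx3 site (chr3:66044298-66044838) it had 15.998 and 10.9 in KO and 4.69 and 2.32 in WT libraries, a ratio of 1.68 (0.78 to 3.22; 1.02 with library totals). These were 3 of the 4 member sites, beside 2.56% of all MED1 sites at least 2-fold higher. The C3 site at exon 1 had 28.6 and 32.6 in KO and 24.98 and 21.6 in WT libraries (0.38; -0.36 with library totals), and a MED1 site within C3 under another name had -0.05 (-0.76 with library totals).

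**Figure D4:**
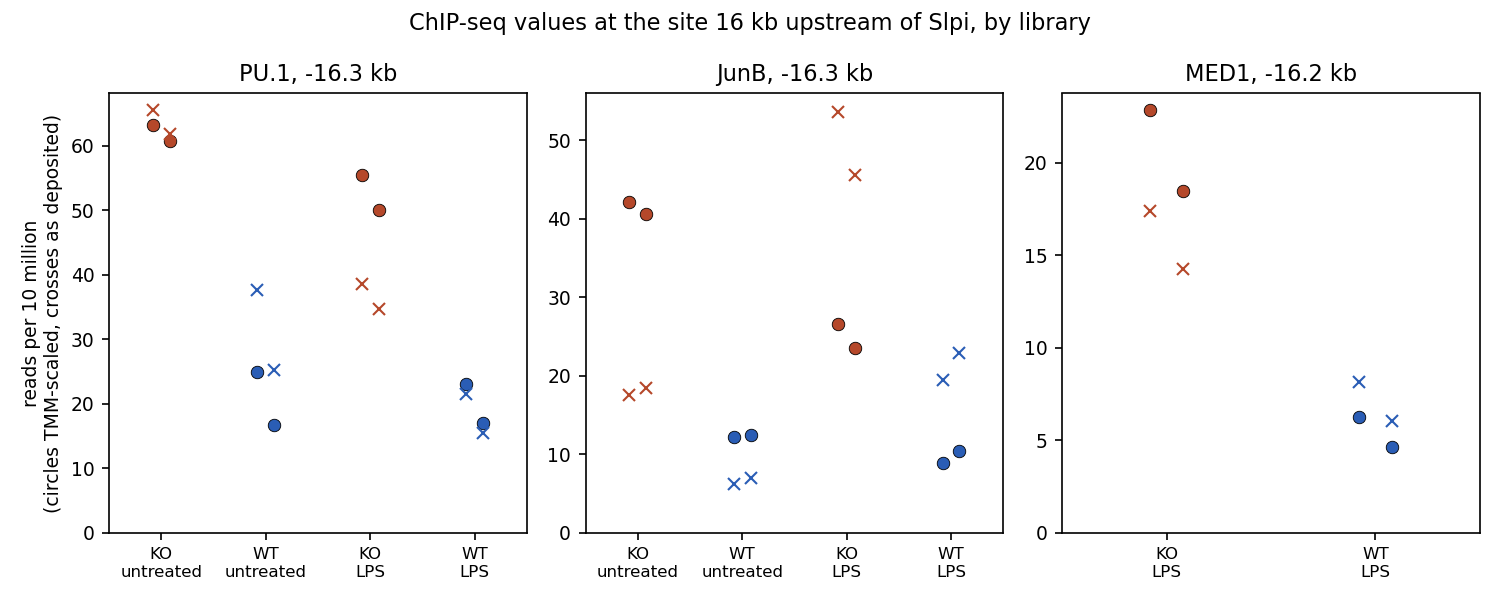
ChIP-seq values at the site about 16 kb upstream of Slpi in each library, in reads per 10000000 mapped reads (circles TMM-scaled, crosses as deposited; red KO, blue WT). Within each condition, KO libraries are above WT libraries in every panel and on both scales. PU.1 with LPS is at 55.5 and 50.1 in KO and 23.04 and 16.9 in WT libraries (TMM-scaled).

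RNA polymerase II was measured with LPS. The 3 sites that carry a member's name held few KO reads: Saa3 1477 bases upstream had 8.86 and 3.47 in KO and 10.5 and 11.9 in WT libraries (-0.77 from 7 KO and 46 WT reads; -2.43 with library totals), C3 5304 bases upstream had 14.2 and 43.2 in KO and 36.5 and 35.2 in WT libraries (-0.31, from 8 and 25 reads in the KO libraries; -2.12 with library totals), and Hp 12786 bases upstream had 3.53 and 3.47 in KO and 7.504 and 9.51 in WT libraries (-1.08 from 4 KO and 35 WT reads; -2.62 with library totals). The Hp site was the 1 lower by 2-fold, beside 7.52% of all sites, and every one of these 3 intervals included 0.

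Further RNA polymerase II sites lie over 3 members but carry the names of other genes in the table, so they were found by position and not by the rule. The site over the whole RefSeq span of Slpi (chr2:164176910-164182797) had 243 and 291 TMM-scaled reads per 10000000 in KO and 12.0 and 9.51 in WT libraries. The KO values were far above the WT values, by a log2 ratio of 4.51 (4.18 to 5.13) and 2.69 with library totals, where the deposited values were 124 and 153 in KO and 23.5 and 18 in WT libraries. The site over Cfb (chr17:34993095-34999722) had 138 and 144 in KO and 184 and 192 in WT libraries, a ratio of -0.41 (-0.67 to -0.17; -2.28 with library totals, below the all-site median of -1.81). The site over the last intron of Saa3 (chr7:53967413-53968214) had 8.86 and 13.8 in KO and 10.5 and 9.99 in WT libraries, a ratio of 0.14 (-0.87 to 1.08) that turned to -1.58 with library totals.

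**Figure D5:**
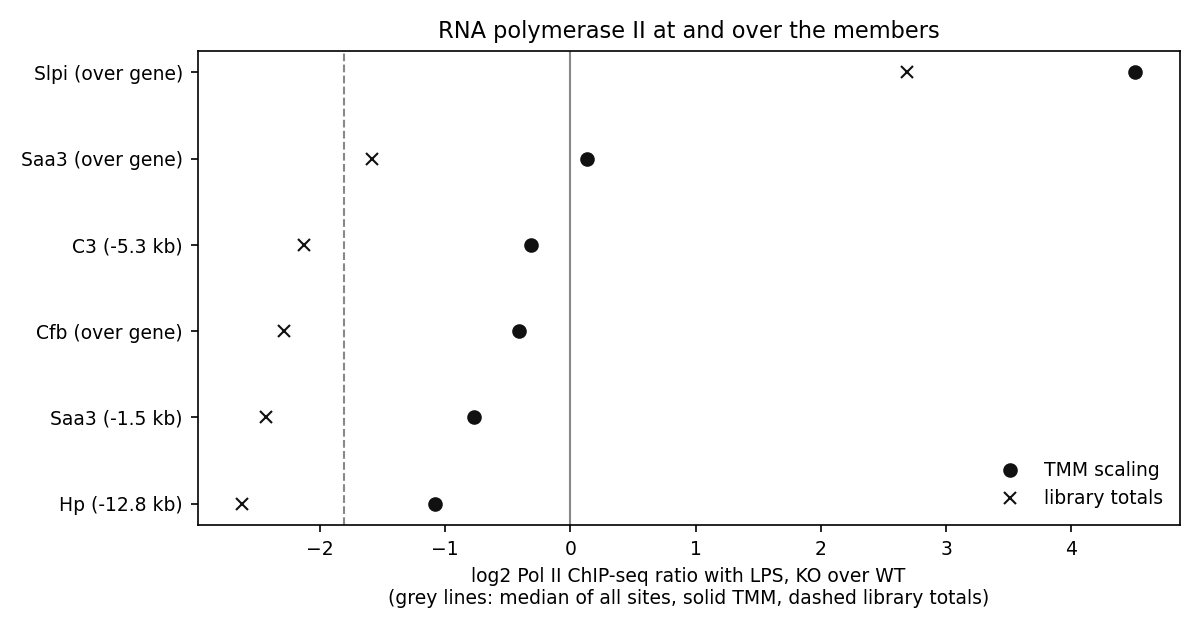
Log2 ratio of RNA polymerase II ChIP-seq, KO over WT with LPS, at 6 sites at or over members (circles TMM scaling, crosses library totals; grey lines the medians of all sites). Slpi lies far to the right on both scales, at 4.51 and 2.69; the others lie between -1.08 and 0.14 with TMM scaling.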

How the data were processed

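Values for 46 libraries were used: 16 RNA-seq, 6 ATAC-seq and 24 ChIP-seq. Expression and ChIP tables hold a score, per the file headers the reads scaled to 10000000 mapped ones, made with HOMER on mm9. Low values were whole multiples of 1 read (100% within 0.1), which recovered the reads. For ATAC-seq the deposited numbers are log2 values; their transformation is not given in the sources used here. Per the submitters' processing notes, Bowtie2, HOMER, BWA, HISAT2, DESeq2, MACS2 and edgeR were used, without roles. Another 8 columns of per-sample values matched no sample and were not used.

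The members, lists and tests were chosen with earlier results of these data known. RNA values were divided by TMM factors, genes with at least the equivalent of 10 reads at the median depth in 4 libraries, and 15 reads in all, were kept (11791 of 14378), and limma 3.58.1 (R 4.3.3; trend, robust) was fitted to log2(value + 1) of all 16 libraries; genes count as called at a Benjamini-Hochberg adjusted p under 0.05. ATAC-seq used limma on the deposited values. Mapped reads ranged from 4038814 to 7108592 in ATAC-seq and 8096466 to 16006472 in ChIP-seq. Named genes are all 7 members, Gps2, the 2 genes most like each member, and from each list the 2 highest and 2 lowest called genes in each KO against WT comparison; Lyz1, Lyz2, Cfp, Slc22a17, Cebpd, Stat3 and Nfkbiz were added after their values were seen. The limma step was tested on simulated data. Ptx3 RNA was not analysed here.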

Additional observations from a re-analysis of the deposited data

Results flagged for a closer look

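WT LPS replicate 4 was far from the other 3 libraries of its group, by Dixon's test at its 95% critical value, for 5 of the 6 members: C3 at 99.3, against 216 to 236 in the other 3; Cfb at 1704, against 2309 to 2406; Hp at 13.2, against 5.45 to 6.09; Saa3 at 12514, against 5056 to 6183; and Slpi at 137, against 67.3 to 79.0. In all 24 groups of member and condition were looked at, and chance flags about 1 in 20 groups; the 5 share a library.

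The response to LPS differed between KO and WT cells in the limma fit for 4 members, on the log2 scale (KO minus WT): Saa3 by -3.01, Hp by -1.77, Cfb by -1.18 and Slpi by -1.18. These values chose the members and are descriptions. With 10 in place of 1 added before taking logs, Slpi differed by -0.12 and did not pass. Hp rested on 0 to 24 reads a library. It did not pass with the replicate number as a block (limma adjusted p = 0.0525).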

How the results depend on the processing

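The number of members called in RNA-seq was 3 untreated and 3 with LPS (KO against WT), 5 and 6 for LPS in KO and WT cells, and 4 for the difference of responses. Leaving out each library in turn gave 3 to 4, 3 to 4, 5 to 5, 6 to 6 and 3 to 5. Equal replicate numbers did not pair the libraries (correlations of their deviations of -0.37 to 0.21 in RNA-seq); with the replicate number as a block these were 3, 3, 5, 6 and 3, the lost one being Hp (adjusted p = 0.0525), and the ATAC-seq count stayed at 2; the ChIP-seq fits with the block are below. The Slpi difference of responses did not pass with a pseudocount of 10 (-0.12), and the Lcn2 difference with LPS passed with a pseudocount of 10 and with only the groups compared. The share of all genes called moved too. For the difference of responses, 20.1% were higher and 18.8% lower without WT LPS replicate 4, against 10.2% and 10.4% over all libraries. Shares without each other library are not given here. Nothing about the members is therefore read from the counts in this paragraph.

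ATAC-seq gave 2 sites, 1 with no trend of the spread, and 1 to 3 leaving out libraries. In ChIP-seq, library totals gave 0 for 2 PU.1 sites untreated, 1 for 3 with LPS, 7 for 3 JunB responses in KO and 7 for 4 in WT cells, and 3 for 1 RNA polymerase II site (where 82.6% of all sites were then lower, and 0.184% and 1.86% of PU.1 sites higher), and turned 3 JunB LPS responses: Slpi 16272 bases upstream to 1.41 in KO and 1.54 in WT cells, and Saa3 to 1.08 in WT cells. A pseudocount of 10 gave 1 for PU.1 untreated, 0 for the PU.1 response in KO cells, 2 for JunB untreated, 0 for JunB with LPS, 2 for the JunB response in WT cells, 0 for MED1 and 0 for RNA polymerase II. A 1.5-fold threshold gave 2 and 1 for the PU.1 responses in KO and WT cells, 4 for JunB with LPS, 6 for the JunB response in KO cells and 2 for RNA polymerase II. Limma with precision weights over the libraries, without and with the replicate block, gave 2 and 3 for the PU.1 response in KO cells, 1 and 1 in WT cells, 2 and 2 for JunB untreated, 4 and 4 with LPS, and 0 and 0 for RNA polymerase II. Leaving out each library gave 2 to 2 and 3 to 4 for PU.1 KO against WT, 1 to 2 and 0 to 0 for its responses in KO and WT cells, 3 to 4 and 1 to 1 for JunB KO against WT, 2 to 3 and 4 to 4 for its responses in KO and WT cells, 2 to 3 for MED1 and 0 to 2 for RNA polymerase II. The causes were not tested. Library totals aside, the shares of all sites called under these settings are not given here. Nothing about the members is therefore read from these counts. Of single-gene and single-site values, 1205 kept their call, 52 passed where they had not, 45 no longer passed and 3 turned.

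Library totals moved the median RNA response to LPS to -0.43 in KO and -0.48 in WT cells; of called genes 22.7% in KO and 21.9% in WT cells were then higher, against 46.6% and 48.5% with TMM scaling. For KO against WT untreated that share was 35.8%, against 50.8%, and for the difference of responses 59.2%, against 49.5%. Without WT LPS replicate 4, genes called untreated were 29.1% higher and 29.7% lower. Count-based tests on the recovered reads, planned as alternatives, were not run. The depth of the ChIP-seq tables limits single sites: several rest on under 10 reads in a group.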
